A study of Mus musculus with 8 samples.

Results

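Small leucine-rich proteoglycans were followed here across 8 RNA-Seq samples of the Hedgehog (Hh)-responsive NIH3T3 line, which consists of embryonic fibroblasts of the mouse. The members were 9 genes, Ogn, Dcn, Lum, Bgn, Fmod, Aspn, Prelp, Omd and Podn, of 20197 annotated genes that had a value in every sample. They were selected on their own expression across these conditions, so their levels and differences are given as a description, without p-values. For each gene the value is the FPKM (sequenced fragments per kilobase, set against the library's size) of the assembled locus that overlapped the annotated gene best on the mm9 genome. Overlap was the shared length over the combined length, with a minimum of 0.5, and the lowest overlap of any member was 0.947 for Dcn.

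The 4 groups had 2 samples each. Control cells carried the empty pcDNA3.1 (Zeo+) vector and received vehicle. The study's methods give this control as equally diluted medium from HEK293 cells without the Sonic Hedgehog transgene. Hh-CM cells carried the same empty vector and received medium conditioned with Hh ligand, diluted 1 in 100, for 48 h. Below, "the medium" means this Hh medium. Esrrb cells carried pcDNA3.1 (Zeo+)-Esrrb, meant to express the orphan nuclear receptor Estrogen related receptor β, and received vehicle, and Esrrb+Hh-CM cells carried that vector and received the Hh medium. All groups were selected with Zeocine, pooled from 2 independent transfections, grown to confluence and held in phenol-red free medium with newborn calf serum, so the vector and the selected cell pool cannot be told apart. The study's methods call the samples biological replicates, without saying how the cultures were kept apart, so errors and p-values measure the spread between these samples.

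These proteoglycans are secreted proteins with a core of leucine-rich repeats, and most carry chondroitin, dermatan or keratan sulfate chains. They bind fibrillar collagen and help to set how fibrils assemble, and several also hold growth factors in the matrix. Fibroblasts are their main source in connective tissue. Hh ligand binds Ptch1, which releases Smoothened, and Gli transcription factors then act on target genes, Gli1 and Ptch1 among them.

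The response to the medium was present in every treated sample. Gli1, a transcription factor and direct target of the pathway, was at 0.0217 and 0.0308 FPKM in Control and at 26.8 and 28.1 in Hh-CM, and at 0.106 and 0.0372 in Esrrb and 34.5 and 34.8 in Esrrb+Hh-CM. Esrrb mRNA itself was listed at 0 in all 4 libraries labelled as carrying the Esrrb vector and in both Control libraries, and at 0.0281 and 0.0203 FPKM in Hh-CM. By Western blot, the study reported more Esrrb protein in cells with the Esrrb vector than with the empty vector. That blot was not analysed here. The mRNA tables thus do not check that label, and "Esrrb" below means the library labelled so. The assemblies of Esrrb replicate 1 and Hh-CM replicate 2 shared 8080 numbered loci with the same name and position, against at most 106 for any other pair. The member values of both samples lay beside those of their own group's other replicate, and results are given with and without them where a call changed. Esrrb replicate 1 alone also had 4339 repeated locus names, against 136 to 147 in the other samples. Its loci flagged for low data numbered 480, against 62 to 78 in the others. Of 8 fibroblast markers, 7 had a value and summed to 4729 to 5644 FPKM. Single markers within that sum moved. Mean Thy1 rose with the medium from 87.65 to 397.4 FPKM in empty-vector cells (log2 difference 2.18). In cells with the Esrrb vector it rose from 96.3 to 530.3 FPKM (2.46). From Control to Esrrb, mean Fn1 fell from 517.8 to 307.2 FPKM and Vim from 1498 to 1197. The means of the other fibroblast markers were higher in Esrrb, with Col1a1 going from 755.7 to 988.6 FPKM. Epithelial markers summed to at most 0.0916 FPKM with Epcam, Krt18 and Krt5 at 0, and skeletal muscle markers to at most 0.332 with Myod1 and Myog at 0. Depth, read from the steps between low FPKM values, ranged from 0.743 to 1.54 times that of Control replicate 1.

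Summed fat, tendon and endothelial markers moved with the groups, each sum carried by 1 gene. The 4 fat markers summed to 8.47 and 9.4 FPKM in Control, 3.99 to 4.85 in Hh-CM, 3.85 to 3.89 in Esrrb and 1.71 to 2.37 in Esrrb+Hh-CM, with Adipoq at 0. Fabp4 made up nearly all of that sum, at 8.4 and 9.34 FPKM in Control and 1.35 and 2.11 in Esrrb+Hh-CM, while Plin1 and Pparg stayed at or below 0.313. The 4 tendon markers summed to 10.9 to 11 FPKM in Control, 11.8 to 11.9 in Hh-CM, 8.52 to 9.02 in Esrrb and 6.93 to 7.94 in Esrrb+Hh-CM, with Thbs4 at 0 and Mkx at 6.93 to 11.6 as nearly the whole sum. Endothelial markers summed to 0.0812 to 0.143 FPKM without the medium and 1.19 to 1.67 with it, with Kdr at 0, and Tek alone read 1.06 to 1.51 with the medium while Pecam1 and Cdh5 stayed at or below 0.12. Blood markers summed to 3.27 to 7.89 FPKM. Between Control and Esrrb, Cd14 averaged 2.81 and 5.31, Cd68 1.15 and 1.56, and Ptprc 0.242 and 0.0489, with Itgam at or below 0.0164 throughout. Cartilage markers summed to 25.4 to 29.7, with Sox9 at 25.3 to 29.7 and Acan, Col2a1, Comp and Matn3 at or below 0.292. Bone markers summed to 6.92 to 9.63, with Runx2 at 6.45 to 9.37 and Sp7, Bglap, Ibsp and Alpl at or below 0.53. The part of these markers in the results below was not tested. In bulk RNA, fewer cells of a type and less RNA per cell cannot be told apart.

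The members spanned more than 3 orders of magnitude in FPKM, a unit that is scaled by transcript length. Dcn, decorin, and Bgn, biglycan, were the most abundant, with means over the 8 samples of 2479 and 1489 FPKM. Lum averaged 539 FPKM, Aspn 172, Ogn 76.9, Prelp 39.3, Fmod 8.48, Omd 2.61 and Podn 0.68. Among the 10284 genes tested, Dcn stood between the 99.6 and 99.9 percentiles in all samples and Bgn between 99.3 and 99.5. Ogn ranged from the 57.9 to the 95.4 percentile and Fmod from the 7.14 to the 62.4 percentile, while Omd stayed between 8.99 and 15.1. All 9 members passed the filter of at least 1 FPKM in at least 2 samples, Podn only through its Hh-CM samples.

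**Figure D1:**
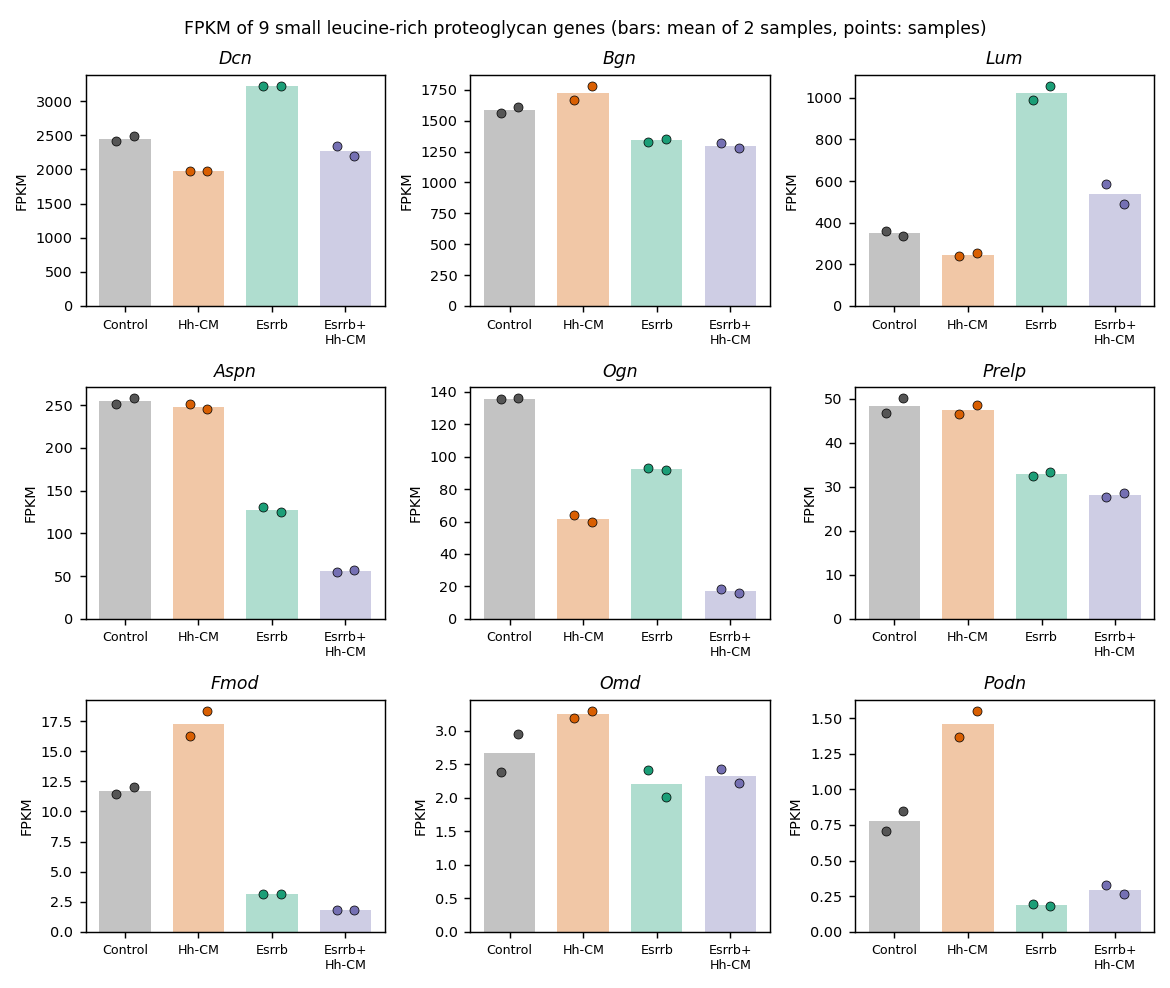
FPKM (linear y axis from 0, own scale per panel) of each member in the 4 groups, with bars for the mean of 2 samples and points for the samples. Ogn is highest in Control and lowest in Esrrb+Hh-CM, Lum is highest in Esrrb at 989 and 1059, and Fmod is highest in Hh-CM at 16.3 and 18.3.

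Ogn, Aspn and Omd lie in one row on the plus strand of chromosome 13, inside the span of Cenpp, which runs on the minus strand and shares no exonic base with them. Aspn covers 49639812 to 49662926, Omd 49678135 to 49687978 and Ogn 49703440 to 49719869, all in mm9. Gaps of 15.2 kb and 15.5 kb separate them, and Ecm2, another small leucine-rich gene, lies 11.7 kb before Aspn.

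Ogn encodes osteoglycin, or mimecan, a class III member that can carry keratan sulfate. Its FPKM was 136 in both Control samples, 63.9 and 59.8 in Hh-CM, 93.3 and 91.9 in Esrrb, and 18.5 and 16.2 in Esrrb+Hh-CM. No 2 groups overlapped, and the order from high to low was Control, Esrrb, Hh-CM and Esrrb+Hh-CM. The SE given here and below comes from the limma fit, with a spread shared by all 4 groups and moderated across genes. With the medium the Ogn level fell by 54.5% in cells with the empty vector, a log2 difference of -1.14 ± 0.07 (SE, n = 2 per group). In cells with the Esrrb vector it fell by 81.3%, a log2 difference of -2.41 ± 0.07. With the vector and vehicle it was 0.681 times the Control mean, which did not reach the fold limit, and under the medium the vector groups differed by -1.83 on the log2 scale. Esrrb+Hh-CM stood at 0.128 times Control, a log2 difference of -2.97, the lowest ratio of any member to Control.

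Aspn encodes asporin, a class I protein that has a run of aspartates in place of glycosaminoglycan chains and binds collagen and transforming growth factor β. It read 252 and 258 FPKM in Control, 251 and 245 in Hh-CM, 131 and 125 in Esrrb, and 54.8 and 57.1 in Esrrb+Hh-CM. Control and Hh-CM lay next to each other, with a log2 difference of -0.04 ± 0.04, and both groups with the Esrrb vector lay below them. The Esrrb mean was 0.501 times Control, a log2 difference of -0.998 ± 0.04 that fell just short of the fold limit of 1. It passed without Control replicate 1 (-1.02), without Esrrb replicate 1 (-1.03), without both samples that share loci (-1.03) and with rescaled FPKM (-1.04). Within the vector cells Aspn fell with the medium to 0.439 times, a log2 difference of -1.19 ± 0.04. Under the medium the vector groups differed by -2.15 and Esrrb+Hh-CM against Control by -2.19 on the log2 scale.

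Omd encodes osteomodulin, a keratan sulfate proteoglycan of mineralised tissue, and it sits between both. Its FPKM was 2.39 and 2.95 in Control, 3.2 and 3.29 in Hh-CM, 2.41 and 2.01 in Esrrb, and 2.43 and 2.23 in Esrrb+Hh-CM. Only the Hh-CM samples stood apart from the rest, and no comparison passed both thresholds. Its largest log2 difference was -0.46 ± 0.15, for Esrrb+Hh-CM against Hh-CM. The ratio of Aspn to Omd FPKM ran from 105 and 87.5 in Control to 22.5 and 25.7 in Esrrb+Hh-CM, and that of Ogn to Omd from 57 and 46.1 to 7.6 and 7.28. At about 2.6 FPKM, the half-width of the interval that Cufflinks gave Omd reached 34.6% of its value.

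**Figure D2:**
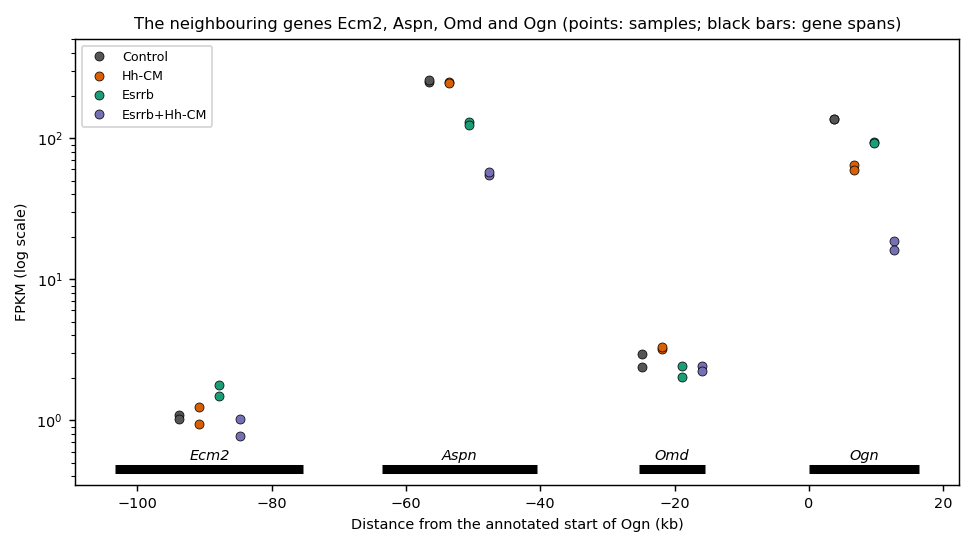
FPKM (log y axis) of Ecm2, Aspn, Omd and Ogn in each sample, placed by distance in kb from the annotated start of Ogn (x axis), with points coloured by group and black bars for the gene spans. Aspn and Ogn are lowest in Esrrb+Hh-CM, at 54.8 and 57.1 and at 18.5 and 16.2 FPKM, while Omd between them stays from 2.01 to 3.29 FPKM.

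Fmod and Prelp lie on chromosome 1, 116 kb apart and on opposite strands. Fmod, fibromodulin, binds collagen early in fibril assembly and is known from tendon and cartilage. It covers 135933831 to 135944854 on the plus strand. Its FPKM was 11.4 and 12 in Control, 16.3 and 18.3 in Hh-CM, 3.09 and 3.14 in Esrrb, and 1.79 and 1.81 in Esrrb+Hh-CM. The 4 groups did not overlap, and the medium went with a higher level in cells with the empty vector and a lower one in cells with the Esrrb vector. Hh-CM was 1.48 times Control (log2 difference 0.55 ± 0.08) and Esrrb+Hh-CM was 0.576 times Esrrb (-0.76 ± 0.08), neither past the fold limit. With the Esrrb vector Fmod fell by 73.4% under vehicle (-1.88 ± 0.08) and by 89.6% under the medium (-3.20 ± 0.08). That ratio of 0.104 was the lowest of any member in the 5 comparisons.

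Prelp, a basic protein that binds heparin and collagen and carries no sulfate chains, covers 135806881 to 135817991 on the minus strand. Its annotated exons share 350 of 3615 bases with Gm15851 on the other strand. The library kit was stranded, but use of strand in counting is not given in the sources used here, so reads of that stretch cannot be assigned to Prelp with certainty. Prelp read 46.7 and 50.1 FPKM in Control, 46.5 and 48.6 in Hh-CM, 32.6 and 33.5 in Esrrb, and 27.7 and 28.7 in Esrrb+Hh-CM. Control and Hh-CM overlapped, and both vector groups lay lower. The ratio was 0.682 for Esrrb to Control (log2 difference -0.55 ± 0.05) and 0.582 for Esrrb+Hh-CM to Control (-0.78 ± 0.05), and no comparison reached the fold limit.

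Lum and Dcn are neighbours on the plus strand of chromosome 10, 47.4 kb apart, at 97028135 to 97035337 and 96942245 to 96980777. Lum, lumican, is a keratan sulfate proteoglycan needed for the regular fibrils of the cornea. Its FPKM was 361 and 336 in Control, 239 and 255 in Hh-CM, 989 and 1059 in Esrrb, and 587 and 488 in Esrrb+Hh-CM. The groups did not overlap, with both vector groups above both others. Esrrb rose to 2.94 times Control (log2 difference 1.55 ± 0.10), and Esrrb+Hh-CM rose to 2.18 times Hh-CM (1.12 ± 0.10). The medium went with lower levels in both vectors, at 0.708 times Control and 0.525 times Esrrb (-0.50 and -0.93, SE 0.10), neither past the fold limit. Esrrb+Hh-CM replicate 1 decided both limits near 1. Without it the difference to Hh-CM was 0.98 and no longer passed, and that to Esrrb was -1.07 and did.

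Dcn, decorin, carries a single chondroitin or dermatan sulfate chain, coats collagen and binds transforming growth factor β. It read 2421 and 2482 FPKM in Control, 1970 and 1981 in Hh-CM, 3217 and 3228 in Esrrb, and 2341 and 2195 in Esrrb+Hh-CM. It was highest in Esrrb and lowest in Hh-CM with no overlap between groups, an order of the extremes that it shares with Lum, at smaller ratios. The ratios were 1.32 for Esrrb to Control and 0.806 for Hh-CM to Control (log2 differences 0.39 and -0.31, SE 0.04), and none of its differences reached the fold limit. The ratio of Dcn to Lum FPKM was 6.71 and 7.38 in Control and 3.25 and 3.05 in Esrrb.

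Bgn, biglycan, is the class I relative of decorin with chondroitin or dermatan sulfate chains, and its soluble form binds Toll-like receptors. It covers 70728941 to 70741272 on the plus strand of chromosome X. Its FPKM was 1560 and 1615 in Control, 1670 and 1785 in Hh-CM, 1331 and 1352 in Esrrb, and 1321 and 1276 in Esrrb+Hh-CM. The groups did not overlap, and those with the Esrrb vector lay closest to each other, with a log2 difference of -0.05 ± 0.04. No difference of Bgn was past the fold limit, the largest being -0.41 ± 0.04 for Esrrb+Hh-CM against Hh-CM. The FPKM of Dcn lay outside the interval that Cufflinks gave it in all 8 samples, and that of Bgn in 7 of 8. Aspn lay inside its interval in 4 of 8 samples and Ogn and Lum in 7 of 8, while Fmod, Prelp, Omd and Podn did in all 8. These intervals were therefore not used as errors. The longest exact run of bases shared by annotated transcripts of any pair of members was 50, a repeat of 2 bases in Bgn and Podn, and 19 for every other pair at most.

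Podn, podocan, a class V protein first described in kidney podocytes, covers 107687396 to 107704942 on the minus strand of chromosome 4. Its FPKM was 0.704 and 0.851 in Control, 1.37 and 1.55 in Hh-CM, 0.196 and 0.182 in Esrrb, and 0.325 and 0.263 in Esrrb+Hh-CM. The groups did not overlap, but every value was under 2 FPKM, and the half-width of its interval reached 105% of the value. It fell with the Esrrb vector under vehicle to 0.243 times (log2 difference -1.60 ± 0.26) and under the medium to 0.202 times (-1.99 ± 0.26), and in Esrrb+Hh-CM to 0.378 times Control (-1.16 ± 0.26). These calls were fragile. Podn passed the filter only through its Hh-CM samples, which favours a lower call against Hh-CM. With at least 1 FPKM required in every sample it was not tested. With a pseudocount of 1 the log2 differences were -0.58, -0.92 and -0.46 and none passed. The first was also lost without Control replicate 1 (-1.72), Control replicate 2 (-1.48), Esrrb replicate 2 (-1.57) or both samples that share loci (-1.63). The second was lost without both of those samples (-1.90), and the third without Control replicate 1 (-1.28), Control replicate 2 (-1.03) or Esrrb+Hh-CM replicate 2 (-1.04).

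A difference was called at an adjusted p below 0.05 with a log2 difference of at least 1 in size, by limma with Benjamini-Hochberg adjustment over all 10284 genes tested. Because the members were chosen on these contrasts, their counts stand beside those of all genes with nothing read from them. In Control vs Hh-CM, Ogn alone of 9 was called, as lower, where 0.797% of all genes were lower and 1.96% higher. In Control vs Esrrb, Lum was called higher and Fmod and Podn lower, where 0.836% of all genes were higher and 0.632% lower. In Control vs Esrrb+Hh-CM, the 4 genes Ogn, Fmod, Aspn and Podn were called lower, where 1.61% of all genes were lower and 4.6% higher. In Hh-CM vs Esrrb+Hh-CM, Lum was called higher and the same 4 genes lower, where 1.11% of all genes were higher and 0.865% lower. Podn passed the filter only through its Hh-CM samples, so its lower call against Hh-CM is favoured by the filter. In Esrrb vs Esrrb+Hh-CM, Ogn and Aspn were called lower, where 1.34% of all genes were lower and 3.47% higher. The median log2 difference of the members in that order was -0.03, -0.55, -0.78, -0.75 and -0.51, and that of all genes tested 0.04, 0.05, 0.08, 0.05 and 0.04. Comparisons with a shared group are not independent of each other, and the smallest p that an exact permutation test allows for 2 samples against 2 is 0.33.

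**Figure D3:**
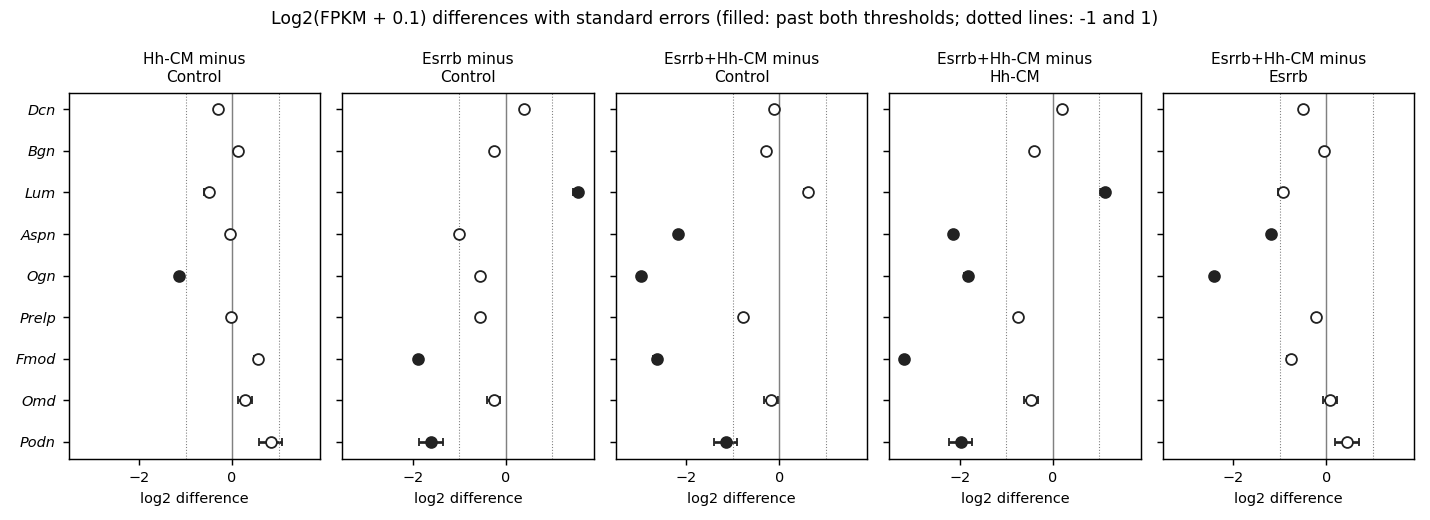
Log2(FPKM + 0.1) differences (x axis) of the 9 members (y axis, by mean FPKM) in the 5 comparisons, with standard errors from limma, filled points for genes past both thresholds and dotted lines at -1 and 1. Ogn is filled in 4 panels, Fmod, Aspn and Podn in 3 and Lum in 2, and Dcn, Bgn, Prelp and Omd stay between the dotted lines throughout.

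The difference with the medium was then compared between vectors, as the Esrrb+Hh-CM minus Esrrb difference less the Hh-CM minus Control difference. All 9 members were negative on this measure, from -0.17 for Bgn to -1.32 for Fmod, with a median of -0.39 against 0.000793 for all genes tested. Ogn (-1.28 ± 0.10), Fmod (-1.32 ± 0.11) and Aspn (-1.15 ± 0.06) passed an adjusted p below 0.05, where 0.593% of all genes passed as lower and 0.758% as higher. Ogn was lower with the medium in both vectors, Aspn in the Esrrb vector with a difference near 0 in the empty vector, and Fmod went in opposite directions. Without both samples that share loci, Aspn alone passed, with Ogn at -1.31 ± 0.14 and Fmod at -1.24 ± 0.13. The other members read -0.20 ± 0.06 for Dcn, -0.44 ± 0.14 for Lum, -0.20 ± 0.07 for Prelp, -0.20 ± 0.21 for Omd and -0.39 ± 0.36 for Podn.

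**Figure D4:**
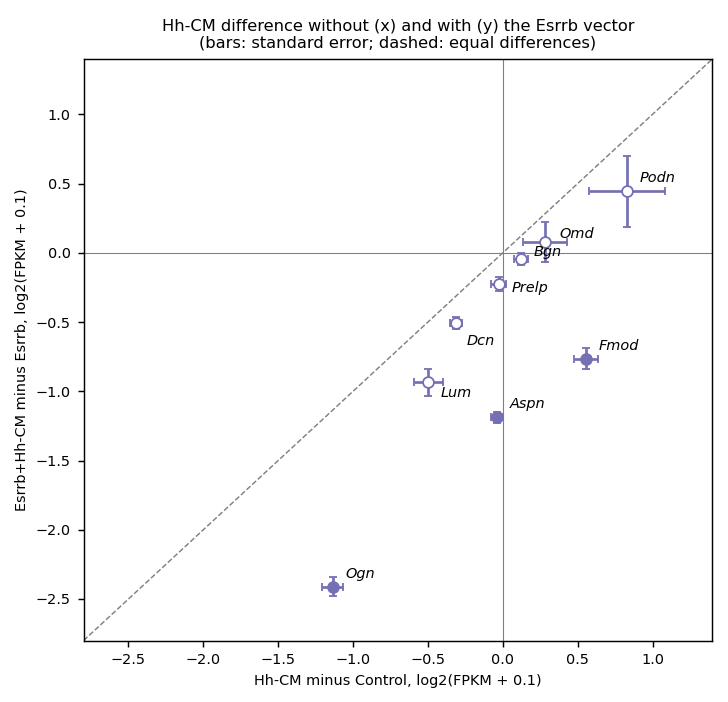
Log2(FPKM + 0.1) difference with Hh-CM in cells with the empty vector (x axis) and with the Esrrb vector (y axis) for the 9 members. Bars are standard errors and the dashed line marks equal differences. Filled points mark members past the adjusted p threshold on the difference between vectors. All members lie below the line, with Ogn at -1.14 and -2.41, Aspn at -0.04 and -1.19 and Fmod at 0.55 and -0.76.

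Because Ogn, Aspn and Fmod were the members called on this measure, the 250 bases before their RefSeq start sites are shown, 5′ to 3′ on the gene's strand. The RefSeq promoter windows were made on GRCm38.p6, and each matched mm9 once without mismatch, at chr13:49703134-49703383 for Ogn, chr13:49639562-49639811 for Aspn and chr1:135933581-135933830 for Fmod, all on the plus strand. Capitals mark TATAAA, read on the gene's strand.

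Ogn: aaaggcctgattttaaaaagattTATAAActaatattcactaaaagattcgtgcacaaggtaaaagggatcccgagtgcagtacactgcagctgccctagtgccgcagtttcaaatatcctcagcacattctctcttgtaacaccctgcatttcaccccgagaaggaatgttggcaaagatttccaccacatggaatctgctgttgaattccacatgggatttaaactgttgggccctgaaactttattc

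Aspn: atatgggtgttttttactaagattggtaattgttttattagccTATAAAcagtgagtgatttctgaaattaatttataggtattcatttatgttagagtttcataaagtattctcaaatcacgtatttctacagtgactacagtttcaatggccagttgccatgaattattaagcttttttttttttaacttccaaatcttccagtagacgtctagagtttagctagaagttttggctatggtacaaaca

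Fmod: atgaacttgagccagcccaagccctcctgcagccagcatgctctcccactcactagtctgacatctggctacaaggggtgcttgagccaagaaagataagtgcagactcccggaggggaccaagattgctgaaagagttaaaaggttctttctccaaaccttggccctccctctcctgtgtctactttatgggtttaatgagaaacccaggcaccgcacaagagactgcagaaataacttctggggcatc

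TATAAA was found far from the start in Ogn and Aspn but not in the windows of the other 5 members that had one, and in 8.32% of 32851 RefSeq mouse windows of 300 bases (250 before and 50 after the start). Windows were given for 7 of the 9 members. None of them held GACCACCC, the core that Gli factors bind, or AAGGTCA, the half-site of estrogen related receptors, each read on both strands. Those letters were present in 0.807% and 4.72% of all windows. The absence says only that these letters are not in these windows.

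Summed over all 9 members, FPKM reached 4842 ± 73.6 for Control, 4329 ± 95.5 for Hh-CM, 5847 ± 67.2 for Esrrb and 4210 ± 204 for Esrrb+Hh-CM (SD, n = 2). Dcn and Bgn made up most of it, and without them the group means were 803, 626, 1283 and 644. In Control replicate 1, Dcn held 50.5% of the sum, Bgn 32.6%, Lum 7.54%, Aspn 5.25% and Ogn 2.84%. The ratio of Dcn to Bgn FPKM was 1.55 and 1.54 in Control, 1.18 and 1.11 in Hh-CM, 2.42 and 2.39 in Esrrb, and 1.77 and 1.72 in Esrrb+Hh-CM. The groups did not overlap on this ratio.

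Other genes of the same matrix were read from lists written by gene function, with earlier results of these data known. The adjusted p-values of list genes are therefore a description and not independent support. Among 9 further small leucine-rich family genes, 3 passed the filter, Ecm2, Tsku and Podnl1, and none was called in any comparison by limma. At an unadjusted p under 0.05, these 3 gave 1 gene higher and 1 lower in Control vs Hh-CM, 1 higher in Control vs Esrrb, and 1 lower in Control vs Esrrb+Hh-CM. The remaining counts were 0 in Hh-CM vs Esrrb+Hh-CM, 1 higher and 1 lower in Esrrb vs Esrrb+Hh-CM, and 1 lower for the difference between vectors. The share of all genes that passes at an unadjusted p is not given. Such counts therefore have no background, here or in the lists below. Podnl1, the podocan-like gene, read 19.8 and 16.7 FPKM in Control and 8.45 and 14.2 in Esrrb+Hh-CM, and passed only without Esrrb+Hh-CM replicate 2 (-1.10). Kera, keratocan, and Epyc, epiphycan, which follow Lum on chromosome 10, stayed under the filter, as did Optc, Chad, Chadl and Nyx. Kera averaged 0.397 FPKM in Control and 0.764 in Esrrb. Epyc averaged 0.369 FPKM for Control, 0.173 for Hh-CM, 0.380 for Esrrb and 0.0493 for Esrrb+Hh-CM. Without the filter Epyc passed both thresholds in Control vs Esrrb+Hh-CM (-1.65) and Esrrb vs Esrrb+Hh-CM (-1.68).

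The enzymes that build the sugar chains were read next. Of 22 genes of chondroitin and dermatan sulfate synthesis, 17 were tested and none was called by limma, with a largest log2 difference of 0.76. At an unadjusted p under 0.05, 2 of these were higher and 5 lower in Control vs Hh-CM, 5 higher and 1 lower in Control vs Esrrb, and 5 higher and 5 lower in Control vs Esrrb+Hh-CM. The remaining counts were 2 higher and 1 lower in Hh-CM vs Esrrb+Hh-CM, 5 lower in Esrrb vs Esrrb+Hh-CM and 2 lower for the difference between vectors. These counts are not read as a response of the enzymes, since many genes outside the lists also passed without the fold limit. At an adjusted p below 0.05 alone, 1854 of all genes passed in Control vs Hh-CM and 1686 in Control vs Esrrb. The numbers were 3604 in Control vs Esrrb+Hh-CM, 1948 in Hh-CM vs Esrrb+Hh-CM and 2407 in Esrrb vs Esrrb+Hh-CM. Of 7 keratan sulfate genes, 3 were tested, B4galt1, B4galt4 and Chst2, and none was called, with 2 higher in Control vs Esrrb at an unadjusted p under 0.05, 1 higher in Hh-CM vs Esrrb+Hh-CM, 1 lower in Esrrb vs Esrrb+Hh-CM, 1 lower for the difference between vectors and 0 in the other comparisons. Chst1, a keratan sulfate sulfotransferase under the filter, averaged 0.948 FPKM for Control, 0.801 for Hh-CM, 0.181 for Esrrb and 0.0738 for Esrrb+Hh-CM. Without the filter it passed both thresholds in Control vs Esrrb (-1.90), Control vs Esrrb+Hh-CM (-2.59) and Hh-CM vs Esrrb+Hh-CM (-2.37).

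Of 16 fibril collagens and lysyl oxidases, 12 were tested and 3 were called in at least 1 comparison. The share of all genes called in at least 1 comparison is not given, so such counts have no background, here or below. Col14a1, under the filter, averaged 0.0135 FPKM for Control, 0.147 for Hh-CM and 0.022 for Esrrb, and read 0.401 and 1.33 in Esrrb+Hh-CM. Without the filter it passed both thresholds in Control vs Esrrb+Hh-CM (2.90) and Esrrb vs Esrrb+Hh-CM (2.80). Col12a1, a collagen on the surface of fibrils, read 3.22 and 3.03 FPKM in Control, 2.56 and 2.39 in Hh-CM, 17.2 and 15.3 in Esrrb, and 15.7 and 14.9 in Esrrb+Hh-CM. It rose with the Esrrb vector under vehicle (log2 difference 2.34 ± 0.08, adjusted p = 9.81e-05 by limma) and under the medium (2.58 ± 0.08, adjusted p = 5.84e-05 by limma). Col11a1, which forms the core of thin fibrils, fell with the vector under vehicle from 6.64 and 7.49 to 2.91 and 2.88 FPKM (log2 difference -1.26 ± 0.08, adjusted p = 0.000784 by limma). Under the medium it stood at 13.1 and 14.1 in Hh-CM and 4.37 and 4.57 in Esrrb+Hh-CM (-1.58 ± 0.08, adjusted p = 0.000341 by limma). Col5a2 rose in Esrrb+Hh-CM over Control from 106 and 109 to 210 and 222 FPKM (1.00 ± 0.06, adjusted p = 0.000127 by limma). That call sat on the fold limit and was lost without Control replicate 1 (0.98), without Esrrb+Hh-CM replicate 2 (0.97), with a pseudocount of 1 (1.00) and with rescaled FPKM (0.92).

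Of 24 other proteoglycan core proteins, 13 were tested and 3 were called in at least 1 comparison. Vcan, versican, rose in Esrrb+Hh-CM over Control from 50.9 and 47.6 to 112 and 114 FPKM (log2 difference 1.20 ± 0.08, adjusted p = 0.000206 by limma). Gpc6, a glypican, fell with the medium in the vector cells from 27.3 and 25.9 to 11.4 and 11.9 FPKM (-1.19 ± 0.05, adjusted p = 5.49e-05 by limma). Cspg4, also known as NG2, rose in the same comparison from 1.01 and 0.762 to 2.34 and 2.39 FPKM (1.34 ± 0.17, adjusted p = 0.00306 by limma), a call lost with a pseudocount of 1 (0.84).

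Of 16 growth factors and receptors known to bind these proteoglycans, 12 were tested and 1 was called in at least 1 comparison. Tgfb3, a ligand of the family that decorin and asporin bind, fell in Esrrb+Hh-CM against Control from 30.4 and 37.5 to 15 and 13.9 FPKM (log2 difference -1.22 ± 0.12, adjusted p = 0.000919 by limma). In all 6 lists no gene was called in Control vs Hh-CM or on the difference between vectors. At an unadjusted p under 0.05 the counts of tested genes higher and lower in Control vs Hh-CM were 5 and 4 of 12 collagens and lysyl oxidases, 5 and 4 of 13 core proteins and 2 and 3 of 12 growth factors and receptors. For the difference between vectors they were 0 and 3, 0 and 4, and 1 and 2. In Control vs Hh-CM, Chst7, a chondroitin sulfotransferase, passed without Control replicate 1 (-1.03, and -1.10 in Control vs Esrrb+Hh-CM) and Col11a1 without Control replicate 2 (1.02).

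Genes next to the members were read in the same way. Cenpp, a centromere protein whose span holds Aspn, Omd and Ogn, read 2.86 and 1.87 FPKM in Control and 4.88 and 5.04 in Esrrb+Hh-CM (log2 difference 1.06 ± 0.29, adjusted p = 0.0356 by limma). The call was lost without Control replicate 2 (0.77) and without any one of the Hh-CM (1.06 for both) or Esrrb+Hh-CM samples (1.09 and 1.04), with a pseudocount of 1 (0.84), without the filter (1.06) and with rescaled FPKM (0.98). Ecm2 read 1.09 and 1.02 FPKM in Control, 1.79 and 1.5 in Esrrb, and 1.02 and 0.769 in Esrrb+Hh-CM, and no difference passed both thresholds. Nol8, Btg1, Btg2, Haus7 and Scp2 were tested and not called, and Kera, Optc, Atp2b3 and Slc1a7 stayed under the filter.

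For each member the 3 genes with the most similar log2(FPKM + 0.1) over the 8 samples were read from 641 genes that averaged at least 5 FPKM and spanned at least 1 log2 unit. The points share libraries and group structure, so Pearson's r is a description. Nearest to Ogn were Wisp2 (r = 0.992), Ak5 (0.991) and Colec12 (0.990), and Wisp2, a secreted matricellular protein, averaged 81.6 FPKM for Control, 45.1 for Hh-CM, 60.5 for Esrrb and 24.4 for Esrrb+Hh-CM. Nearest to Aspn were Cd24a (0.997), Dpysl3 and Rcan2, with Cd24a at 34.4, 32.5, 20.9 and 10.9 FPKM in the same order. Lum was most like Kitl (0.995), the ligand of the Kit receptor, at 33.7, 27.1, 76.0 and 45.1 FPKM, then Amigo2 and Ppp1r3b. Dcn was most like Trp53inp2 (0.994), Glis3 and Ppap2b.

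Of the members, Fmod alone appeared in the lists of others. Dcn, Bgn, Prelp, Omd and Podn fell short of the mean or the range that a listed gene needed. Fmod was the gene most like Bgn (r = 0.978) and the third most like Prelp (0.981), and Sema3c, a secreted semaphorin, stood in the lists of Fmod, Bgn and Prelp. Sema3c averaged 12.5 FPKM for Control, 12.9 for Hh-CM, 2.91 for Esrrb and 2.25 for Esrrb+Hh-CM. Prelp was most like Col8a1 (0.990) and Fmod most like Sema3c (0.985). Podn was most like Mfap4 (0.990), Mgp and Ppef1, and Omd most like Smoc2 (0.948), Smarca1 and Mthfs.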

How the data were processed

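Total RNA of 8 NIH3T3 samples was sequenced from stranded mRNA libraries in one lane. The authors trimmed reads, mapped them to mm9 with TopHat2 and Bowtie2, and assembled transcripts with Cufflinks under reference guidance, and the deposited values are FPKM per gene locus. The submitters' processing notes also name Cuffdiff, and versions are not given in the sources used here.

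Each locus was matched to the GENCODE vM1 gene it overlapped best, at a shared over combined length of at least 0.5. The highest-overlap row gave the gene's value. limma 3.58.1 in R 4.3.3 was fitted to log2(FPKM + 0.1) of 10284 genes (FPKM of 1 or more in 2 or more of the 8 samples), with 4 group means, a variance trend and Benjamini-Hochberg adjustment. A log2 fold change is on the log2(FPKM + 0.1) scale and understates changes of low genes. Thresholds were an adjusted p of 0.05 and, between groups, a log2 difference of 1. The fit was tested on simulated data. The tables hold no read counts, so no counting interval was formed.

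Groups came from the labels' titles. The members and lists were chosen with earlier results of these data known. The genes given with values by rule are the members, list genes past the thresholds and neighbouring genes. Genes among the 3 most like each member, and Gli1 and Esrrb as checks, were also given by rule. Other list genes, such as Kera, Epyc, Podnl1, Chst7, Chst1 and Col14a1, were named after their values were seen. Replicate numbers share a label only. Alternatives were other pseudocounts, filters, scaling, loci summed, overlap of 0.8, a replicate block and each sample left out, with 1 alternative, leaving out both samples that share loci, added after seeing the data.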

Additional observations from a re-analysis of the deposited data

Results flagged for a closer look

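The interaction term of the fit over all genes compares the difference with Hh-CM between vectors, and 3 members passed its adjusted p threshold. It was -1.28 for Ogn, -1.32 for Fmod and -1.15 for Aspn on the log2 scale. The members were selected on these conditions, so this is a description. Without both samples that share assembled loci, Ogn (-1.31) and Fmod (-1.24) no longer passed, and Aspn did.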

How the results depend on the processing

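Of 1011 member differences recomputed under 19 alternatives, 923 moved by less than the replicate spread, 88 moved further and no called difference turned its sign. Without the fold limit the members called were 4, 8, 7, 8 and 6, against 1, 3, 4, 5 and 2 in the order Control vs Hh-CM, Control vs Esrrb, Control vs Esrrb+Hh-CM, Hh-CM vs Esrrb+Hh-CM and Esrrb vs Esrrb+Hh-CM. Over all genes that rule called 1854, 1686, 3604, 1948 and 2407, and over the 6 lists 20, 24, 31, 16 and 21 genes. Leaving out 1 sample at a time gave 1 to 1, 2 to 4, 3 to 4, 4 to 5 and 2 to 3 members, and 3 to 3 for the difference between vectors, which was 1 without both samples that share loci. The same step gave 0 to 1, 2 to 3, 4 to 5, 2 to 2, 2 to 4 and 0 to 0 list genes, with Tgfb2, Col5a3, Sdc2, Lox, Cspg4, Chst7, Podnl1 and Col11a1 passing in a further comparison in at least 1 of these. Without a filter, the lists gave 7 genes instead of 4 in Control vs Esrrb+Hh-CM, 4 instead of 2 in Esrrb vs Esrrb+Hh-CM and 1 instead of 0 for the difference between vectors. Rescaled FPKM gave 4 and 2 in the last 2 of these, and a pseudocount of 1 or at least 1 FPKM in every sample gave 1 in Esrrb vs Esrrb+Hh-CM.

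Counts over all genes moved by more than 1.5 times in Control vs Hh-CM (284 against 179 with a pseudocount of 1 and 185 with at least 1 FPKM in every sample), Control vs Esrrb (151 against 88 and 70) and Hh-CM vs Esrrb+Hh-CM (203 against 125 and 109). For the difference between vectors, 139 genes became 215 with rescaled FPKM, 84 without the variance trend, 64 (without Esrrb replicate 2) to 168 (without Esrrb+Hh-CM replicate 2) with 1 sample left out and 59 without both samples that share loci. The cause was not tested. Replicate numbers did not pair samples, since deviations of same-numbered samples correlated at -0.06 to 0.06, and with the replicate block 1, 3, 4, 5, 2 and 3 members were called as before, while 139 genes over all became 55. Rescaling moved the median of all genes by at most 0.082. Of the members, Podn and Omd had the lowest FPKM and the widest Cufflinks intervals, with half-widths of up to 105% and 34.6% of the value.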

Other observations

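Myl6b, a myosin light chain among the 3 genes most like Fmod, averaged 1025 FPKM for Control, 889 for Hh-CM, 6.33 for Esrrb and 6.62 for Esrrb+Hh-CM. Mgp, matrix Gla protein, which was among the 3 genes most like Podn, averaged 52.4, 65.1, 28.4 and 34.1 FPKM in the same order. Locus positions and overlaps were read for the members only, so an error of locus matching in Myl6b or Mgp was not tested.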
